A study of Mus musculus with 3 samples.

Results

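The genes described here encode ubiquitin-conjugating enzymes and deubiquitinating enzymes. They were taken by name, as every listed gene whose symbol begins with Ube2, Usp and a digit, Otud or Uchl, with Usp18 left out. The rule found 79 of 11419 listed genes, of which 30 had Ube2 names, 41 Usp names, 6 Otud names and 2 Uchl names. The libraries were made from 1 myeloid population of hind limb marrow from C57BL/6 mice, an inbred strain, gated as CD11b+, F4/80+, CD169+ and CX3CR1 negative. The labels name no treatment, age or sex, and there is no second population here to compare with. There were 3 libraries, with 5150020, 40149274 and 37604930 reads in replicates 1, 2 and 3. The labels do not say that each came from its own mouse, so p-values here reflect no more than variation among the libraries, which may be technical. Those of limma also draw on a variance shared over all 11123 tested genes, so they do not measure the spread of a single gene. Levels are given in CPM, read counts scaled to 1000000 reads in each library. CPM do not correct for gene length, so the order of genes in CPM is one of read share, and relatives are compared per length further on.

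Ubiquitin is a small protein that cells attach to other proteins through an enzyme cascade. An E1 enzyme activates it, an E2 (the Ube2 genes) carries it on a cysteine, and an E3 ligase selects the target. The linkage between ubiquitins in a chain decides the fate of the target, with K48-linked chains leading to the proteasome and K63-linked chains serving in signalling and membrane sorting. Deubiquitinating enzymes, or DUBs, remove or trim the chains, and the USP, OTU and UCH families are cysteine proteases of this kind. In myeloid cells the system is known for its part in NF-kB signalling, in the cell cycle of precursors and in the turnover of membrane receptors.

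The gate is labelled as macrophages, while the RNA was rich in neutrophil transcripts. All 12 late neutrophil markers were above 10 CPM, with a summed level of 188023 to 224823 CPM in a library. Of 14 macrophage markers 6 were above and 5 below, with a summed level of 261 to 294 CPM, and none of the 14 was at 0 in every library. Of the gate's genes, Siglec1, which encodes CD169, was at 0.388, 3.66 and 4.57 CPM in replicates 1, 2 and 3. Those values are 2, 147 and 172 reads, so that of replicate 1 is uncertain. Adgre1, which encodes F4/80, was at 18.6, 26.5 and 21.4 CPM, and Cx3cr1 at 0.423 in replicate 2 with no read in the others. The 12 proliferation markers were all above 10 CPM and summed to 2251 to 2597 CPM. In bulk RNA, whether a member is at a low level in all cells or at a high level in few cells cannot be told apart, nor can fewer cells of a type and less RNA per cell.

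Most members were present at a moderate level. By limma, at an adjusted p under 0.05, 57 of the 79 members exceeded 10 CPM and 10 lay below it, and the other 12 had no call, while 58.8% of all 11123 tested genes were above and 28.3% were below. Those shares of all tested genes are the background for each count of calls by family, role or list in this report. All 79 members passed the filter of 10 reads over the libraries. The median over members was 35.7 CPM, against 20.9 CPM over all tested genes. Members were longer, with a median exon length of 5.474 kb against 4.438 kb. Per kb of exons the medians lay close together, at 5.002 CPM per kb over members and 4.615 over all tested genes. Only 11 members exceeded 100 CPM, and 469 listed genes were higher than the highest member. Together the members took 0.408 ± 0.0283% of all reads (SD, n = 3), and the 10 highest held 38.7% of that sum. The Ube2 genes summed to 1871 ± 45.6 CPM and the Usp, Otud and Uchl genes, called DUB genes here by name, to 2208 ± 267 CPM. The former include the pseudogene Ube2d-ps. The latter include 4 genes without an established DUB activity, which are set apart further on. Of the 30 Ube2 genes 25 were above 10 CPM and 2 below, and of the 49 Usp, Otud and Uchl genes 32 were above and 8 below. Member means ran from 0.440 CPM for Usp35 to 282 CPM for Ube2d3.

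**Figure D1:**
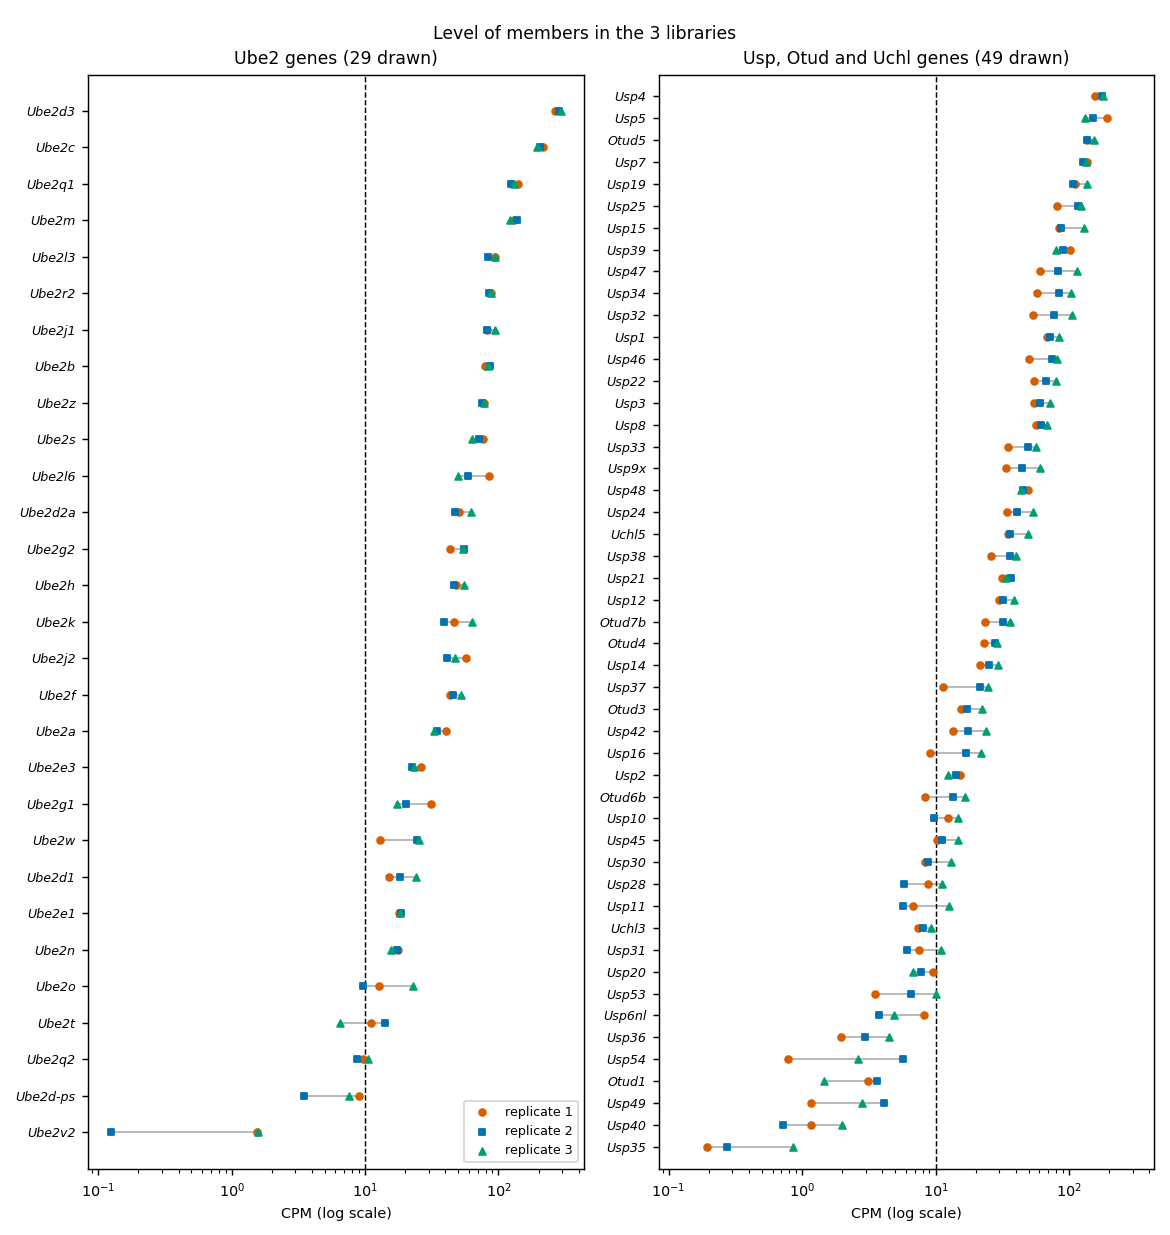
Level of the members in CPM on a log axis, 1 Ube2 gene not drawn, with 1 point for each of the 3 libraries and a grey line from the lowest to the highest. The dashed line marks 10 CPM, and members are ordered by their mean. Ube2d3 leads the Ube2 genes at 282 CPM and Usp4 the 49 Usp, Otud and Uchl genes at 171 CPM. Many of those 49 genes have their lowest point in replicate 1.

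Ube2d3 was the highest member of all. It encodes an E2 of the UBE2D group, which works with a wide range of RING ligases and often places the first ubiquitin. Its level was 265, 286 and 296 CPM in replicates 1, 2 and 3, a mean of 282 ± 15.6 (4.69 log2 units over 10 CPM with SE 0.11 and limma adjusted p = 7.37e-21). The libraries lay close together. Of the other broad initiators, Ube2d2a was at 53.6 ± 8.01 CPM, Ube2e3 at 23.9 ± 1.99, Ube2w at 21.1 ± 7.01, Ube2d1 at 19.2 ± 4.62 and Ube2e1 at 18.3 ± 0.349. All 6 initiators were above 10 CPM, and leaving out replicate 2 ended the call of Ube2w (limma adjusted p = 0.0792). Ube2w, which places ubiquitin on protein N-termini, was at 13.01, 24.7 and 25.6 CPM, with replicate 1 low. Ube2e1 was among the steadiest members at 17.9, 18.5 and 18.4 CPM. Ube2d-ps, a transcribed pseudogene of the group, was below at 6.66 ± 2.83 CPM, a call that did not hold in edgeR (adjusted p = 0.0827 on recovered reads), in DESeq2 (0.115), without replicate 2 (limma, 0.468), without replicate 3 (0.0778), without the read filter (0.129) and without a variance trend (0.0580).

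The E2 enzymes of cell division were represented by a high and a moderate member. Ube2c, the E2 that starts chains on the anaphase-promoting complex, was at 217, 205 and 196 CPM in replicates 1, 2 and 3 (206 ± 10.7, 4.23 log2 units over 10 CPM with SE 0.11 and limma adjusted p = 7.70e-20). Ube2s, which extends those chains, was at 76.1, 71.7 and 63.7 CPM. Both were highest in replicate 1 and lowest in replicate 3, by a small margin. Ube2t, which acts in the Fanconi pathway of DNA crosslink repair, was called neither way at 11.1, 14.05 and 6.44 CPM (limma adjusted p = 0.979). Of their partners, Cdc20 and Fzr1, the activators of the complex, were at 147 ± 8.44 and 126 ± 5.29 CPM. Its catalytic subunit genes Anapc2 and Anapc11 were at 107 ± 8.81 and 49.7 ± 10.5 CPM. Fancl, the Fanconi ligase that Ube2t serves, was below 10 CPM at 3.83 ± 1.54.

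The stretches upstream of Ube2c and Ube2t are shown because these genes were the highest and the lowest of the 3 members in this role. Capitals mark the CCAAT box (CCAAT) and the cell cycle genes homology region (TTTGAA or TTCGAA), each searched on both strands. The sequences are RefSeq promoters of build GRCm38.p6, plus strand. That of Ube2c is chr2:164769679-164769905 and ends 23 bases before the RefSeq start, and that of Ube2t is chr1:134962315-134962564 and ends next to it.
Ube2c: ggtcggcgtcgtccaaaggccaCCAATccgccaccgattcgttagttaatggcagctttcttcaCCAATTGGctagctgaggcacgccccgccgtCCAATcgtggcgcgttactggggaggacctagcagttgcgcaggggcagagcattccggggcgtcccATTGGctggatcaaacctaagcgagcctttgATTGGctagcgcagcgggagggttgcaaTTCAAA
Ube2t: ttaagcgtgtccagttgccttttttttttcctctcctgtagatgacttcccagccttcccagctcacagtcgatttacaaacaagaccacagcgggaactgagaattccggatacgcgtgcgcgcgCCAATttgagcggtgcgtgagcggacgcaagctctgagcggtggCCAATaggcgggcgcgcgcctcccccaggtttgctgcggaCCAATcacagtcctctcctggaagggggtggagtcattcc

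Ube2c held 6 CCAAT matches, 2 of which overlap as CCAATTGG, and 1 match to the homology region (TTCAAA, its reverse strand) at the end of the stretch, where GENCODE places the first bases of the gene. Ube2t held 3 CCAAT matches and none to the homology region. In the 250 bases before the start, Ube2s held 1 match to the homology region and no CCAAT. Of the 61 members with a RefSeq promoter 12 held CCAAT (19.7%) and 6 the homology region (9.84%), against 34.5% and 17.4% of 27025 promoters of the same length. Both motifs stood together in 2 members, Ube2c and Ube2f, or 3.28%, against 6.21% of all promoters. A match is a match of letters and does not show a bound site.

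Ube2m, Ube2f and Ube2l6, whose enzymes carry modifiers other than ubiquitin, were above 10 CPM. Ube2m, the main E2 for NEDD8, which activates cullin ligases, was at 131, 138 and 121 CPM in replicates 1, 2 and 3 (3.57 log2 units over 10 CPM with SE 0.12 and limma adjusted p = 5.26e-18). Ube2f, the second NEDD8 enzyme, was at 47.3 ± 4.75 CPM. Ube2l6, the E2 for the interferon-induced modifier ISG15, was at 84.3, 58.6 and 49.4 CPM, with replicate 1 the highest. Of the rest of the ISG15 system, the E1 gene Uba7 was above 10 CPM at 76.5 ± 4.50, Isg15 itself was not called at 11.4 ± 3.54 and the ligase gene Herc6 was below at 4.41 ± 0.144. Usp18, the ISG15 protease left out of the member list, was below 10 CPM at 5.13 ± 0.782. Of 12 interferon-stimulated markers 6 were above 10 CPM and 4 below, and their summed level was 192 CPM in replicate 1 against 233 and 255 in replicates 2 and 3. Ube2l6 thus did not follow their order over the libraries. The summed markers of 6 other lists were, like Ube2l6, highest in replicate 1. In replicates 1, 2 and 3 they were 8457, 6542 and 7137 CPM for primary granules, 1502, 738 and 807 for basophils and mast cells, and 1161, 1033 and 944 for monocytes and dendritic cells. Erythroid markers summed to 1059, 608 and 607 CPM, macrophage markers to 294, 261 and 283.5, and lymphoid markers to 139, 91.5 and 108. Ly6c2 made up most of the monocyte and dendritic cell sum, at 1141, 1017 and 932 CPM. Of the 7 genes in that list 5 were below 10 CPM. Nkg7, at a mean of 87.6 CPM, made up most of the lymphoid sum, whose mean was 113. Of the 14 macrophage markers 9 were highest in replicate 1, while Adgre1, Csf1r and Siglec1 were lowest there. The sums of these lists do not show that the cell types were more abundant in replicate 1. The part of the 6 lists in the level of Ube2l6 was not tested.

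Of the E2 genes for K48-linked chains and for degradation at the endoplasmic reticulum, all 6 were above 10 CPM. Ube2r2, a partner of cullin ligases, was at 88.0, 85.3 and 87.8 CPM and hardly varied. Ube2j1, which is anchored in the endoplasmic reticulum, was at 82.5, 81.7 and 94.3 CPM and its relative Ube2j2 at 48.3 ± 8.10. Ube2g2, which acts in the same degradation pathway, was at 51.0 ± 6.83 CPM. Ube2k, which builds K48 chains, was at 46.8, 38.8 and 62.9 CPM. Ube2g1 was at 31.1, 20.2 and 17.5 CPM, with replicate 1 above the others, and Cdc34, a close relative of Ube2r2 under another name, at 102 ± 17.5.

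Of the E2 pair for K63-linked chains, Ube2n was called above 10 CPM and Ube2v2 below. Ube2n, the catalytic partner, was at 17.7, 17.3 and 15.7 CPM (0.70 log2 units over 10 CPM with SE 0.19 and limma adjusted p = 0.00144) and leaving out replicate 2 ended its call (limma adjusted p = 0.0636). Ube2v2, an inactive E2 variant that binds Ube2n, was below 10 CPM at 1.08 ± 0.829, with 8, 5 and 59 reads in replicates 1, 2 and 3. The count of 5 reads corresponds to 0.125 CPM with an exact Poisson 95% interval of 0.0404 to 0.291 CPM, which covers counting error only. Ube2v1, the other partner of Ube2n, was not analysed here. Traf6, a ligase that uses the pair, was at 29.9 ± 9.36 CPM.

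The RAD6 genes, which serve histone H2B ubiquitination and DNA damage tolerance, were both above 10 CPM. Ube2b was at 79.2, 86.0 and 83.9 CPM and Ube2a, on the X chromosome, at 40.2, 34.4 and 32.6. Their H2B ligase genes Rnf20 and Rnf40 were at 92.2 ± 1.02 and 155 ± 19.2 CPM, and Rad18, the ligase for the DNA clamp, at 16.6 ± 3.19. Ube2l3, which serves HECT and RBR ligases such as the linear chain complex, was at 93.4, 83.6 and 93.7 CPM, and Rnf31 of that complex at 63.1 ± 6.29. Among the remaining E2 genes Ube2q1 led at 139, 124 and 129.8 CPM (131 ± 7.60). Ube2z, which takes ubiquitin from the E1 enzyme UBA6, was at 77.5, 74.6 and 77.8 CPM, and Uba6 was called neither way at 12.5 ± 4.90. Ube2h, the E2 of the CTLH ligase of maturing red cells, was at 49.8 ± 5.09 CPM, with Maea and Rmnd5a of that ligase at 138 ± 22.3 and 52.1 ± 5.31. Ube2o, an E2 and E3 hybrid of reticulocytes, was at 12.8, 9.59 and 23.0 CPM and not called (limma adjusted p = 0.0546), but was above in edgeR on recovered reads (adjusted p = 0.0149), in DESeq2 (0.0344) and without replicate 1 (limma, 0.0201). Ube2q2 was not called at 9.66 ± 0.946 CPM.

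**Figure D2:**
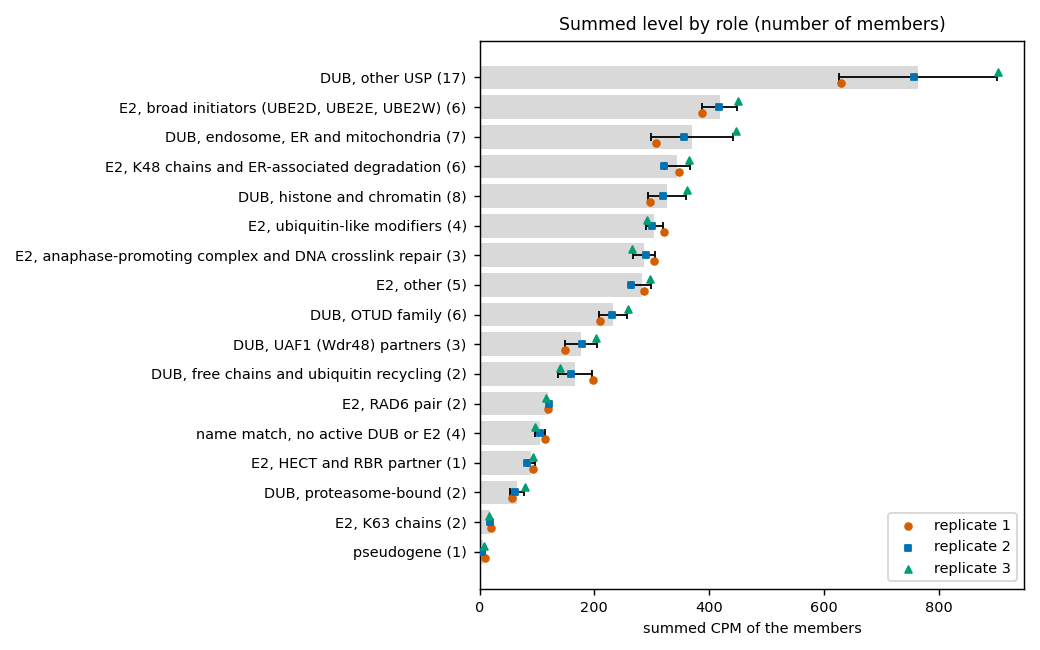
Summed CPM of the members in each role, with the bar for the mean over 3 libraries, the error bar for the SD and a point for each library. The number of members is in brackets. The broad initiator E2 genes sum to 418 ± 30.9 CPM, and the K63 genes Ube2n and Ube2v2, without Ube2v1, to 18.0 ± 1.07 CPM. The 17 USP genes grouped as other have the largest SD in CPM, 137 on a mean of 764.

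Usp4 and Usp5 had the highest CPM of the Usp, Otud and Uchl genes. Usp4, which acts on NF-kB and TGF-beta signalling proteins and on splicing factors, was at 156, 177 and 180.0 CPM in replicates 1, 2 and 3 (171 ± 13.4, 3.96 log2 units over 10 CPM with SE 0.11 and limma adjusted p = 4.41e-19). Usp5, which takes apart free ubiquitin chains, was at 191, 152 and 132 CPM (158 ± 30.3), with replicate 1 the highest. Uchl3, placed in the same role for ubiquitin recycling, was called neither way at 8.25 ± 0.961 CPM. Ubiquitin itself was abundant as RNA, with Ubb at 463 ± 49.8 CPM and the fusion gene Rps27a at 296 ± 64.3.

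Otud5, an X-linked OTU enzyme that restrains interferon induction through TRAF3, led its family at 136, 137 and 154 CPM (142 ± 9.76, 3.70 log2 units over 10 CPM with SE 0.12 and limma adjusted p = 2.21e-18). Otud7b, which acts in noncanonical NF-kB signalling, was at 23.5, 32.0 and 36.3 CPM, Otud4 at 26.6 ± 3.04 and Otud3 at 18.3 ± 3.52. Otud6b, at 8.35, 13.6 and 16.5 CPM, was not called, but was above without replicate 1 (limma adjusted p = 0.0185). Otud1 was below 10 CPM at 2.74 ± 1.14. Of the 6 Otud genes 4 were above and 1 below (66.7% and 16.7%), against 58.8% and 28.3% of all tested genes. DUB genes of NF-kB control under other names were also above, with Cyld at 54.2 ± 9.86 CPM, Tnfaip3, the A20 gene, at 25.5 ± 5.34 and Otulin at 26.7 ± 8.65.

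Nuclear DUB genes were led by Usp7, which stabilises the p53 ligase MDM2 and other nuclear proteins, at 136, 126 and 134 CPM (132 ± 5.31). Usp22 of the SAGA coactivator complex was at 54.95, 67.0 and 79.7 CPM and Usp3, a histone H2A enzyme, at 54.4, 60.9 and 72.5. Usp21 was at 34.0 ± 2.62 CPM and Usp16, another H2A enzyme, at 9.13, 16.8 and 21.8, where replicate 1 lay under 10 CPM. The call of Usp16 above 10 CPM (limma adjusted p = 0.0258) was lost without replicate 2 (0.314), without replicate 3 (0.341), without the read filter (0.146) and without a variance trend (0.0775). Usp11 was not called at 8.38 ± 3.70 CPM, and the nucleolar Usp36 and the H2B enzyme Usp49 were below at 3.12 ± 1.26 and 2.68 ± 1.46. The 3 partners of WDR48, also called UAF1, were all above, with Usp1, which deubiquitinates the DNA clamp and FANCD2, at 68.3, 71.9 and 83.9 CPM, Usp46 at 50.5, 75.1 and 80.6 and Usp12 at 29.9, 32.1 and 38.5. Wdr48 itself was at 51.5, 78.3 and 103 CPM. All 4 genes were lowest in replicate 1 and highest in replicate 3. Replicate 1 was lowest for 71.4% of the 49 Usp, Otud and Uchl genes and for 44.0% of all tested genes. Replicate 3 was highest for 77.6% of those 49 and for 48.2% of all tested genes.

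Among DUB genes of membranes and organelles, Usp19, whose main form sits in the endoplasmic reticulum, was highest at 110.5, 107 and 136 CPM (118 ± 15.9). Usp32 was at 53.8, 76.8 and 106 CPM and Usp8, which sorts receptors at the endosome, at 56.3, 61.3 and 68.4. Usp33 was at 34.8, 49.5 and 56.4 CPM and the X-linked Usp9x at 33.8, 44.8 and 60.2. Usp30, which opposes mitophagy at the mitochondrion, was not called at 10.1 ± 2.64 CPM, nor was Usp20 at 8.01 ± 1.41. None of these 7 genes was below. The proteasome-bound enzymes Usp14 and Uchl5 were both above, at 21.4, 25.3 and 29.3 and 34.8, 36.2 and 49.3 CPM, with Adrm1, the proteasomal receptor of Uchl5, at 49.7 ± 4.36 and Psmd14, the DUB subunit of the proteasome lid, at 59.4 ± 0.736.

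Of the 17 catalytic USP genes in no other role, Usp4 among them, 11 were above 10 CPM and 2 below. These are 64.7% and 11.8%, against 58.8% and 28.3% of all tested genes. Usp25, which acts on TRAF proteins, was at 81.2, 117 and 123 CPM (107 ± 22.6) and Usp15, a relative of Usp4, at 84.5, 87.3 and 129. Usp47 was at 60.8, 83.0 and 115 CPM, Usp34, which acts in Wnt signalling, at 57.9, 83.8 and 104 and Usp24 at 34.4, 40.8 and 54.1. In each of these 5 genes replicate 1 was the lowest and replicate 3 the highest. Over the 49 Usp, Otud and Uchl genes the shares were 71.4% for replicate 1 lowest and 77.6% for replicate 3 highest. Usp48 was at 46.1 ± 2.85 CPM, Usp38 at 26.0, 36.2 and 40.2, and Usp37, which acts on cyclin A, at 11.5, 21.6 and 24.7. The call of Usp37 ended when replicate 2 was left out (limma adjusted p = 0.132) and without replicate 3 (0.0538), that of Usp42 (13.4, 17.4 and 24.0 CPM) without replicate 2 (0.0740), and that of Usp2 (15.1, 14.1 and 12.4 CPM) without replicate 1 (0.120), without replicate 2 (0.221), without replicate 3 (0.0558) and with a pseudocount of 5 (0.0535). Usp10 (12.3 ± 2.52), Usp45 (12.1 ± 2.38), Usp28 (8.54 ± 2.69) and Usp31 (8.18 ± 2.47) were not called. Usp40 (1.29 ± 0.646) and Usp35 (0.440 ± 0.358) were below, the latter with 1, 11 and 32 reads in replicates 1, 2 and 3.

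The role list sets 4 genes apart as matched by name without an established enzyme of this kind. For Usp53 and Usp54, long classed as inactive, activity on K63-linked chains has since been described, so that label is uncertain. Usp39, a splicing factor with an inactive USP domain, was well above 10 CPM at 102, 90.1 and 79.5 CPM (90.4 ± 11.0). Usp53, at 3.50, 6.55 and 10.1 CPM, Usp54, at 0.777, 5.68 and 2.63 CPM, and Usp6nl, a GTPase-activating protein for Rab5 that only shares the name, at 8.16, 3.79 and 4.89 CPM, were below. The call of Usp53 did not hold in edgeR (adjusted p = 0.111 on recovered reads), in DESeq2 (0.122), without replicate 1 (limma, 0.335), without replicate 2 (0.230), without the read filter (0.140) and without a variance trend (0.0645), and that of Usp6nl without replicate 2 (0.175) and without replicate 3 (0.0608). Without these 4 genes and Ube2d-ps, the calls above 10 CPM number 56 of 74.

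Levels of different genes were compared per kb of exons, within each library, for 17 pairs of relatives or partners. In 16 of 17 pairs the same gene was higher in all 3 libraries. An exact permutation test that flips signs over 3 libraries, two-sided, cannot go below p = 0.25, and none of the pairs can pass a threshold (adjusted p = 0.266 over 17 pairs for the 16). On this scale Ube2c, at 79.2 ± 4.11 CPM per kb, and Ube2m, at 55.2 ± 3.48, were the highest members. Ube2m exceeded Ube2f by 3.35 ± 0.22 on the log2 scale of CPM per kb (SD, n = 3), Ube2q1 exceeded Ube2q2 by 3.18 ± 0.12 and Usp25 exceeded Usp28 by 3.75 ± 0.56. Other gaps of one sign were those of Usp4 over Usp15 (1.72 ± 0.28), Usp7 over Usp47 (1.47 ± 0.46), Usp33 over Usp20 (2.31 ± 0.58), Usp3 over Usp16 (2.44 ± 0.41) and Ube2j1 over Ube2j2 (1.16 ± 0.27). The log2 difference was negative for Ube2a against Ube2b (-1.31 ± 0.21), Ube2g1 against Ube2g2 (-2.08 ± 0.62), Usp14 against Uchl5 (-2.13 ± 0.12) and Ube2l3 against Ube2l6 (-1.02 ± 0.39). Usp12 against Usp46 was not of one sign (-0.26 ± 0.24, exact permutation p = 0.5).

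The choice of length mattered for several members. Over all annotated isoforms the exons of Ube2d3 cover 24.5 kb, while its longest coding transcript has 3.83 kb, so its level was 11.5 ± 0.635 CPM per kb of exons but 73.6 CPM per kb of that transcript. Its rank among the 79 members moved from 25 to 3. Ube2d3 exceeded Ube2d2a by 1.30 ± 0.17 and Ube2d1 by 1.39 ± 0.26 on the log2 scale per kb of exons, and by 1.77 and 2.47 per kb of coding transcript. For Ube2c over Ube2s the difference was 2.52 ± 0.06 per kb of exons and 0.72 per kb of coding transcript. Per kb of coding transcript, Usp4 over Usp15 was 2.43, Usp3 over Usp16 1.23, Usp7 over Usp47 0.95, Ube2q1 over Ube2q2 3.88 and Ube2j1 over Ube2j2 0.82. Ube2l3 against Ube2l6 shrank to -0.42, and Usp12 against Usp46 became -0.88, with Usp46 higher in all 3 libraries. Ube2e1 against Ube2e3 turned from -0.40 to 0.28. Ube2c and Ube2m kept the first and the second rank on both scales.

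**Figure D3:**
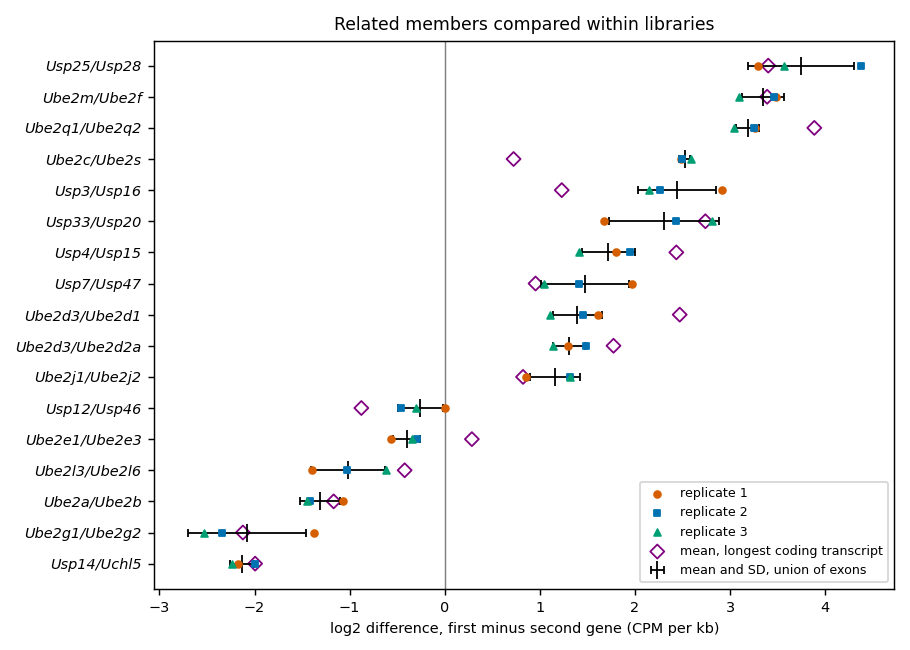
Log2 difference of CPM per kb between the first and the second gene of each of 17 pairs, with a point for each library, a bar for the mean and SD per kb of exons, and an open diamond for the mean per kb of the longest coding transcript. The points of 16 pairs lie on one side of 0, and Ube2e1 against Ube2e3 changes side with the length used.

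The Ube2 and DUB genes had different spreads between libraries. The median coefficient of variation was 9.92% over the Ube2 genes and 21.4% over the DUB genes, against 20.6% over all tested genes. These groups differ in level too, with medians of 49.7, 30.6 and 20.9 CPM, and the coefficient fell with level. By level, the median over members was 24.0% at 10 to 30 CPM, 13.4% at 30 to 100 CPM and 6.86% at 100 to 300 CPM, against 20.01%, 14.9% and 12.98% over listed genes of the same levels. Replicate 1 was the lowest library for 35 of 49 DUB genes and for 7 of 30 Ube2 genes, against 44.0% of all tested genes. Replicate 3 was the highest for 38 DUB genes and 14 Ube2 genes, against 48.2%. The DUB genes were longer, with a median coding transcript of 4.74 kb against 3.05 kb. Among members with at least 20 reads in replicate 1, the 18 with a coding transcript of 5 kb or more had a median ratio of replicate 1 to the mean of the others of 0.784, with 15 of 18 under 1. The 18 members under 2.5 kb had a median ratio of 0.950, with 10 of 18 under 1. Over all listed genes with that many reads the medians were 0.793 and 1.11. The median of the long members lay near that of all long genes, while that of the short members lay under that of all short genes. Ratios under 1 were found in 81.6% of all long and 33.4% of all short genes. Across genes, which are not independent replicates, log2 ratio and log2 length had a Pearson r of -0.28 over 71 members and -0.37 over 8911 genes. The difference between the 2 classes, and the parts of length and level in it, were not tested.

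**Figure D4:**
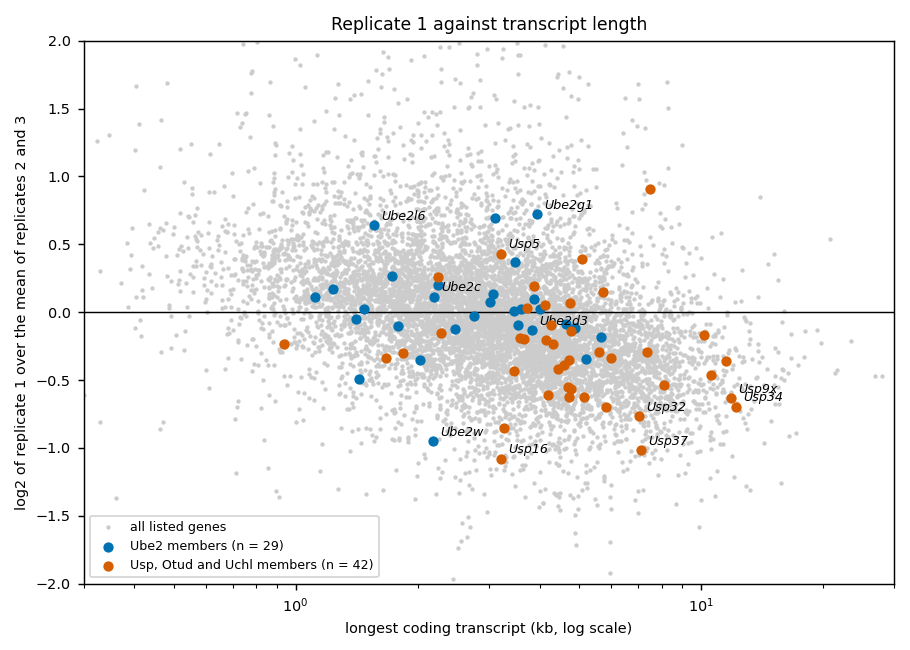
Log2 ratio of replicate 1 to the mean of replicates 2 and 3 against the length of the longest coding transcript (log axis), for members and other listed genes with at least 20 reads in replicate 1; values outside 2 log2 units are not drawn. Long genes such as Usp34, Usp9x and Usp32 lie under 0, with the bulk of long genes in grey, while Ube2l6 and Ube2g1 lie over it.

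Single members with the largest spread were of both kinds. Of the 63 members with a mean of at least 10 CPM, 24 had a ratio of 1.5 or more between the highest and the lowest library (38.1%), against 31.3% of 7283 listed genes at that level. The count was 4 without replicate 1, 22 without replicate 2 and 5 without replicate 3, and 14 with TMM scaling. The largest ratios were those of Ube2o (2.40), Usp16 (2.39), Ube2t (2.18), Usp37 (2.16), Otud6b (1.98), Usp32 (1.97), Ube2w (1.97), Usp47 (1.89), Usp34 (1.80) and Usp42 (1.79). The smallest were those of Ube2r2 (1.03), Ube2e1 (1.04) and Ube2z (1.04). Depth and marker sums moved with the libraries too. Replicate 1 had the fewest reads, and eosinophil markers summed to 595 CPM there against 1007 and 1389 in replicates 2 and 3. The basophil and mast cell sum, given beside Ube2l6, was highest in replicate 1, while Hdc of that list went the other way at 552, 609 and 675 CPM. Their part in the spread of members was not tested.

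The rest of the cascade was read from lists of pathway genes. Of 9 E1 genes 8 were above 10 CPM and none below, led by Uba1, the main ubiquitin E1, at 425, 426 and 421 CPM in replicates 1, 2 and 3. Of 8 E2 genes under other names 6 were above and 1 below, with Atg3, the autophagy E2, at 150.0 ± 22.4 CPM and Birc6, a giant E2 and E3, at 96.6 ± 18.7, while Atg10 was at 2.26 ± 0.639. Of 25 listed DUB genes under other names 22 were above and 1 below. The highest were Eif3f, better known as a subunit of a translation factor, at 214 ± 22.8 CPM, Mindy1 at 125 ± 3.76 and Otub1 at 85.0 ± 18.3, and Otub2 was below at 0.752 ± 0.867. Of 33 ligases and partners 29 were above and 3 below, with Rnf40, Cdc20 and Maea, given above, among the highest. The 3 below were Fancl, Herc6 and Rnf8, a DNA damage ligase at 5.22 ± 1.87 CPM. The background shares are those given for the members.

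Reads of some members could not be assigned with certainty. The strand setting of the counting is not given in the sources used here, and the exons of 12 members overlap those of another listed gene. Those of Ube2s overlap Rpl28, a ribosomal protein gene at 390.1 CPM on the opposite strand, over 3.56% of their length, and those of Ube2c overlap Tnnc2, not analysed here, over 22.8%. In 11 members at least 10% of the 50-base stretches of their transcripts also occur in transcripts of other annotated genes. The shares were largest for Usp49 (49.8%), Ube2h (44.2%), Ube2l3 (32.2%, mostly with Ydjc on the opposite strand), Usp14 (25.4%, with Thoc1) and Usp1 (21.4%). For Ube2d3 the share was 3.48%, for Ube2d2a 4.73% and for Ube2a and Ube2b 0%, and the levels of the genes with large shares are uncertain. Of the annotated genes matching the name rule, 26 protein-coding ones were not analysed here, among them Ube2v1, Uchl1 and Usp13. On GRCm38 the leading members lie on chromosome 3 (135438149 to 135468198, plus strand, Ube2d3, ENSMUSG00000078578), chromosome 2 (164769898 to 164778822, plus strand, Ube2c, ENSMUSG00000001403), chromosome 9 (108347853 to 108392545, plus strand, Usp4, ENSMUSG00000032612), chromosome 6 (124815019 to 124829484, minus strand, Usp5, ENSMUSG00000038429) and chromosome X (7841364 to 7876626, plus strand, Otud5, ENSMUSG00000031154). Each interval covers the gene with its introns, and all 5 encode proteins.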

How the data were processed

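RNA of 3 libraries of 1 sorted marrow population was analysed. The authors deposited CPM per gene and library, and per the submitters' processing notes their tools were FastQC, STAR, featureCounts and edgeR, with builds mm10 and GRCh38. Versions, strand setting and gene filter are not given in the sources used here. The 11463 rows of a library included 44 repeats of a gene. All CPM were whole multiples of 1 read within 0.01 reads (100% of values), which gave the depths in the report. For replicate 1 the limit left by a count of 0 (3 reads) was 0.583 CPM, and for the deeper replicates 2 and 3 it was 0.0747 and 0.0798 CPM. Without molecular identifiers, intervals cover counting error only.

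For each gene with at least 10 reads, limma 3.58.1 (R 4.3.3) fitted an intercept to log2(CPM + 1), a pseudocount of 1, and compared it two-sided with the same value at 10 CPM, with Benjamini-Hochberg adjustment over 11123 genes. Each gene's variance was moderated toward a trend over all tested genes, so SE and p-values do not rest on its own libraries alone. The scale understates differences of low genes. On recovered reads edgeR 4.0.16 (quasi-likelihood F statistic against the fixed level) called 6660 genes above and 2787 below, and DESeq2 1.42.0 called 6558 and 2939. The fits were also run on simulated reads with 1 biological coefficient of variation, 32.6%, for all genes. In the data the spread fell with level, so that run does not give the error rate of the calls here. Pairs were compared as log2(CPM per kb + 0.1) with GENCODE M21 exon lengths (GRCm38, the assembly of mm10). Of 24 pairs 7 had a gene not analysed here. Members, roles and lists were chosen with earlier results of these data known. Some genes, 1 member among them, are not reported here by name. Any other member could be named; library values were set for the highest of each class, the most variable and those in pairs, and for other lists the 4 highest above and 2 lowest below 10 CPM were set. Other partners and library values, the length relation, the 50-base stretches and the promoters were chosen after values were seen.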

Additional observations from a re-analysis of the deposited data

How the results depend on the processing

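The calls of members held under most settings. Between 56 and 58 members were above 10 CPM and between 8 and 10 below with a pseudocount of 0.1 or 5, without the filter, with TMM or DESeq2 scaling, without a variance trend, in edgeR and in DESeq2. Over all genes these settings gave 6335 to 6660 above and 2787 to 3199 below. Leaving out 1 replicate gave 51 to 58 members above and 7 to 9 below. Over all 11123 tested genes it gave 5884 to 6537 above and 2423 to 3109 below. The count below 10 CPM moved with the level, to 6 at 5 CPM and to 22 at 20 CPM, and the count above to 69 and 45. Of all 11123 tested genes, 7712 were above and 1870 below 5 CPM, and 4929 above and 4689 below 20 CPM. Per kb of exons, 23 members were above and 48 below 10 CPM per kb, since most members are longer than 1 kb. Of 11115 tested genes with an exon length, 2896 were above and 6976 below 10 CPM per kb. Against that level the log2 values of 29 members called above 10 CPM turned negative: Otud4 -1.36, Otud7b -1.36, Ube2d1 -1.04, Ube2d2a -0.97, Ube2e1 -1.11, Ube2e3 -0.77, Ube2f -0.80, Ube2g1 -0.91, Ube2k -0.62, Ube2n -1.14, Ube2w -1.10, Usp12 -0.43, Usp14 -1.45 and Usp15 -0.66. The others were Usp16 -2.07, Usp2 -1.50, Usp21 -0.44, Usp24 -1.31, Usp3 -0.13, Usp32 -0.010, Usp33 -0.93, Usp34 -1.04, Usp37 -2.03, Usp38 -0.68, Usp42 -1.51, Usp46 -0.20, Usp47 -0.63, Usp48 -0.93 and Usp9x -1.46. Against 20 CPM those of Otud3 -0.14, Ube2d1 -0.078, Ube2e1 -0.13, Ube2n -0.23, Usp16 -0.39, Usp2 -0.50, Usp37 -0.12 and Usp42 -0.16 turned, and against 5 CPM those of Ube2d-ps 0.27, Usp53 0.27 and Usp6nl 0.086. With the longest coding transcript, 17 of 17 pairs had one sign in place of 16, and Ube2e1 against Ube2e3 turned to 0.28. With a pseudocount of 1 per kb, 16 pairs had one sign, and Usp33 over Usp20 was 1.61, Usp25 over Usp28 3.13, Usp3 over Usp16 1.94, Ube2q1 over Ube2q2 2.77 and Usp14 against Uchl5 -1.86. Leaving out 1 replicate gave 16 to 17 pairs of one sign and a summed share of members of 0.392% to 0.419%. The count of members with a ratio of 1.5 or more was 14 with TMM scaling and 4 to 22 with 1 replicate left out; that 2 libraries give smaller ratios than 3 follows in part from their number. No paired analysis was possible because there is 1 group. At 10 CPM replicate 1 had 51.5 reads, which limits low members there.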
